A study of Mus musculus with 6 samples.

Results

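The genes of the cytosolic ribosomal proteins were compared between untreated mouse granulosa cells and granulosa cells treated with GSK4112. Members were the protein-coding genes of the deposited FPKM table whose symbol follows the Rpl, Rplp, Rps or Rpsa names of cytosolic ribosomal proteins and whose mean over the 6 libraries was at least 10 FPKM. FPKM is the number of fragments per kilobase of exon, scaled to the size of the library. Of the 27151 genes in the table, 79 protein-coding genes matched the names and 71 reached the mean. The large subunit had 40 members and the small subunit had 31. They were selected on their mean FPKM, so a high level is not a finding.

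The series holds 3 control libraries and 3 GSK4112 libraries. GSK4112 is a synthetic agonist of NR1D1 (REV-ERB alpha), a nuclear receptor of the circadian clock that represses transcription. Granulosa cells, the somatic cells that surround and feed the oocyte, were released from punctured mouse follicles in a solution that held milrinone. The sources differ on how the agonist was given: the series' design text speaks of treatment in vivo, while the sample protocol describes cultured cells, and the files do not settle it. By the protocol, both groups spent 24 h in serum and 12 h without it. The agonist was then present or absent for 24 h, and the medium was renewed every 12 h. Strain, age and whether the libraries of a group came from separate cultures or animals were not given in the sources used here. The p-values therefore measure the spread between these libraries, which may be technical. In bulk RNA, fewer cells of a type and less RNA per cell cannot be told apart.

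A cytosolic ribosome joins a small subunit, which reads the mRNA, to a large subunit, which forms the peptide bonds. Its proteins are made in matched amounts and assembled on ribosomal RNA in the nucleolus. Their mRNAs begin with a pyrimidine tract, the 5′ TOP motif, through which mTOR and LARP1 control their translation. They are also among the mRNAs that gave rise to the most processed pseudogenes, intronless copies in the genome that a short read may not tell from the parent gene.

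The TOP tract begins at the first transcribed base. RefSeq promoter windows on GRCm38.p6 were matched by symbol to 53 of the 71 members and gave 61 windows, since some genes have more than 1 annotated start. A C at the start followed by 4 bases that were each C or T was found in 12 of the 61 windows (19.7%) and in 2.5% of the 32851 windows of all genes. The run CTCTTTC lay on the sense strand within 30 bases of the start in 11.5% of the members' windows and in 0.813% of all windows. CCGGAAG, on either strand of the 300 bases searched, was in 39.3% and 8.86%. TATAAA, the core of a TATA box, was in 9.84% and 13.6%, and CACGTG, the E-box of MYC and of clock factors, was in 8.2% and 7.15%. The lines that follow show 15 bases before the annotated start and 15 from it, 5′ to 3′, with CTTTC or CTTTTC in capitals. They were chosen because they hold the run, which was marked in 16 of the 61 windows, and they show it at or close to the start in members of both subunits.

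Rplp2: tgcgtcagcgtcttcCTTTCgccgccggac
Rpl38: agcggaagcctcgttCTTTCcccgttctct
Rpl28: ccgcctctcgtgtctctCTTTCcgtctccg
Rpl12: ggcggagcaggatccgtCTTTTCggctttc
Rps26: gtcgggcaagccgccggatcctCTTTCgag

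The Rplp2 window lies at chr7:141447636-141447665 and the Rpl38 window at chr11:114668565-114668594, both on the plus strand. In Rplp2 and Rpl38 the run starts at the first transcribed base, and in Rps26 it starts 7 bases further in. Motif matches describe these letters and are not measured sites.

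The libraries held 16559248 to 18158276 fragments, read from the steps of the low values. A member had 5943 fragments in a library at the median and at least 247. Granulosa markers were present in every library, with Inha, a subunit of inhibin, at 1370 to 2245 FPKM. The leukocyte marker Ptprc and the theca marker Cyp17a1 stayed at or below 0.0678 and 0.0555 FPKM, but other genes of their lists were present. Cd68 of the leukocyte list had 2.2 to 5.69 FPKM. In the theca and stroma list Acta2 had 44.5 to 234 FPKM and Col1a1 7.09 to 26.2 FPKM. Of 10 granulosa markers 9 had a mean of at least 1 FPKM, and the list summed to 2988, 3630 and 3575 FPKM in the controls and to 2200, 2768 and 2965 FPKM with GSK4112. The exception was Amh, at 0.253 to 0.66 FPKM. The leukocyte list summed to at most 6.9 FPKM, the oocyte list to at most 3.7 and the endothelial list to at most 1.0. The replicate 1 libraries of both groups stood apart. Summed over 20 mitosis genes, control replicate 1 had 324 FPKM and GSK4112 replicate 1 had 240, against 43.8 to 85.8 in the other 4. The theca and stroma list, with 2 of 8 genes at a mean of at least 1 FPKM, stood at 265 and 142 FPKM in them and at 53.6 to 86.2 in the others. The part of these differences in the results below was not tested. The fit without both replicate 1 libraries is given for the members after their places in the ribosome.

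Ribosomal protein mRNAs were low in control replicate 3 and high in GSK4112 replicate 3, and close to one another in the other 4 libraries. The 71 members summed to 16034, 15849 and 13644 FPKM in the controls, in the order of their replicate numbers. With GSK4112 the sums were 16277, 15790 and 18366 FPKM. The groups overlapped, since GSK4112 replicate 2 was below both higher controls. The share of all FPKM held by the members was 5.4, 5.19 and 4.73% in the controls and 5.56, 5.43 and 6.06% with GSK4112. The mean sum was 15176 ± 1329 FPKM in controls and 16811 ± 1369 FPKM with GSK4112 (SD, n = 3 each), a ratio of 1.11.

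The libraries numbered 3 carried most of that ratio. GSK4112 replicate 3 had 1.35 times the summed FPKM of control replicate 3, while the ratio was 1.02 for replicate 1 and 0.996 for replicate 2. These ratios match libraries by number, which no label states as a pairing, and another matching would give others. In deviations from the group means over genes, control replicate 3 correlated at 0.53 with GSK4112 replicate 2 and at 0.213 with GSK4112 replicate 3. Control replicate 3 was the lowest of the 6 libraries for 65 of the 71 members, and GSK4112 replicate 3 was the highest for 62. The 16 mitochondrially encoded genes held 10.2% of all FPKM in control replicate 3 and 8.35 to 9.36% in the other 5 libraries, and their part in the members' sum was not tested. As a share of nuclear FPKM, the members still had 5.27% in control replicate 3 and 6.62% in GSK4112 replicate 3, against 5.72 to 6.06% in the other 4.

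**Figure D1:**
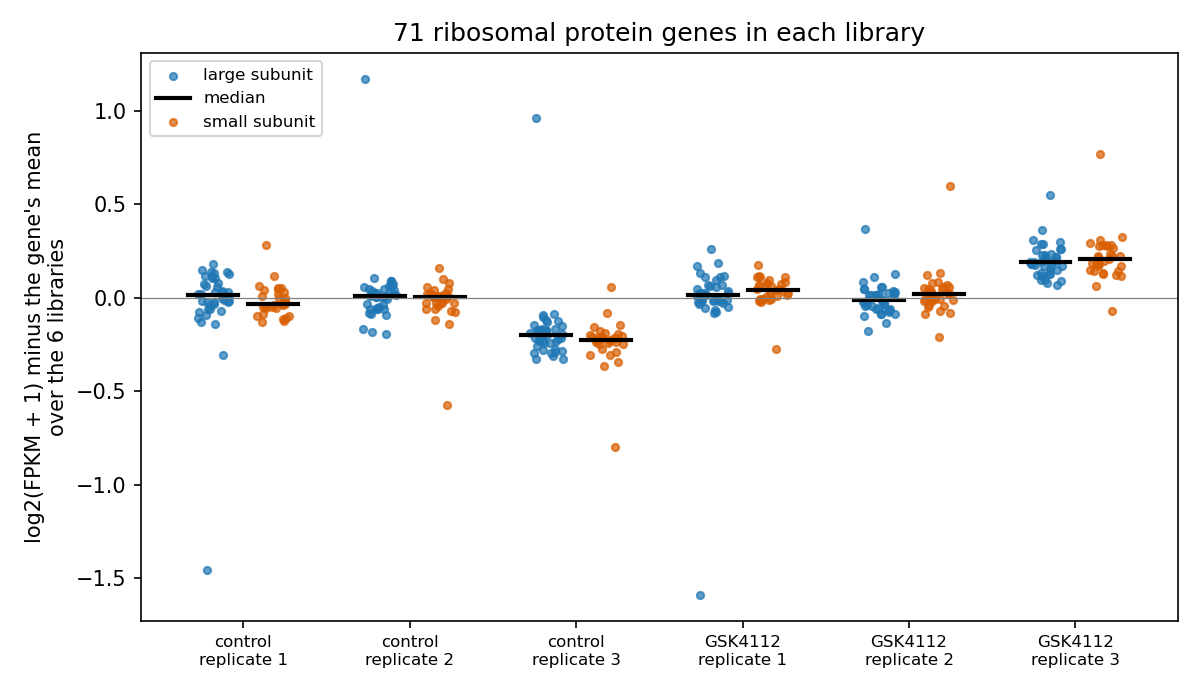
Each point is 1 of the 71 members in 1 library, as log2(FPKM + 1) minus the gene's mean over the 6 libraries (vertical axis), with the large subunit in blue, the small subunit in orange and black bars at the medians. Control replicate 3 lies below the others (median -0.21) and GSK4112 replicate 3 above them (median 0.19). The points far from the rest are Rpl26 and Rps2.

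No member passed the test in either direction. In limma on log2(FPKM + 1) over 12181 genes with a mean of at least 1 FPKM, 126 genes (1.03%) had a Benjamini-Hochberg adjusted p under 0.05, and 0 of the 71 members did. With an unadjusted p under 0.05 there were 7 members and 2065 of all genes tested. The smallest adjusted p of a member was 0.148. With the replicate number as a block, 839 genes (6.89%) and again 0 members were called. Without both replicate 1 libraries 856 genes (7.03%) were called, and 2 were members, Rps2 and Rpl26, described below with their copies.

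The members leaned the same way without passing singly. The log2 difference, GSK4112 minus control, was above 0 for 65 of 71 members, and the median over members was 0.15, a ratio of 1.11. Over all 12181 genes the median was 0.05, with 60.9% above 0. Scaling by median of ratios moved both down, to 0.09 for the members and 0.00 for all genes. The lowest GSK4112 value lay above the highest control value for 19 members (26.8%), and 0 members were separated the other way. Of all genes tested, 15.7% were separated with GSK4112 higher and 7.9% with GSK4112 lower. This count depended on the scaling: median of ratios left 7 members separated against 10.6% of all genes. TPM gave 33 against 15.6%, quantile normalization 41 against 12.7%, and scaling on the genes that are no members 33 against 16.6%. Fewer libraries separate more easily. Without both replicate 1 libraries 31 members were separated against 35% of all genes, and without both replicate 3 libraries 19 against 27.7%.

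Compared by replicate number, a matching that no label states, the members did not move together in each pair. In replicate 1 the median difference was 0.05, with 46 members higher and 25 lower, against a median of 0.04 over all genes tested. In replicate 2 it was -0.01, with 31 higher and 40 lower, against 0.06 over all genes tested. In replicate 3 it was 0.41, with 69 higher and 2 lower, against a median of 0.04 over all genes tested. Without both replicate 3 libraries the members' median fell to 0.03, below the 0.05 of all genes, and 43 of 71 members were above 0. Leaving out control replicate 3 alone gave 0.07, and leaving out GSK4112 replicate 3 alone gave 0.10. Without both replicate 1 libraries the median was 0.19.

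**Figure D2:**
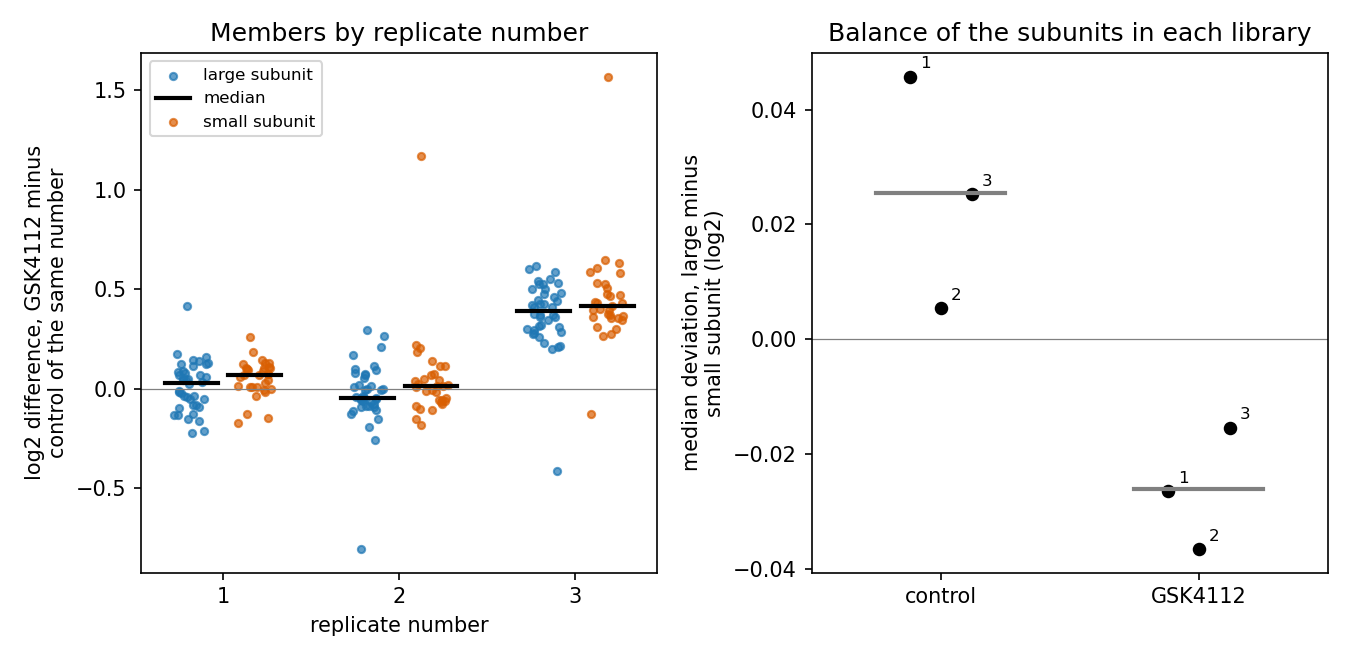
Left, the log2 difference of each member between the GSK4112 and control libraries of the same replicate number (horizontal axis), with subunits in colour and medians as black bars; the medians lie near 0 for replicates 1 and 2 and near 0.4 for replicate 3. Right, the median deviation of the large subunit minus that of the small subunit in each library (log2), labelled with the replicate number, with grey bars at the group means of 0.03 and -0.03.

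The large and the small subunit shifted by similar amounts. The median log2 difference was 0.14 for the 40 large-subunit members, with 36 above 0 and 9 separated. It was 0.16 for the 31 small-subunit members, with 29 above 0 and 10 separated. These are 22.5% of the large and 32.3% of the small subunit separated, against 15.7% of all genes tested with GSK4112 higher. In log2 deviation from each gene's own mean, the median of the large subunit minus that of the small was 0.05, 0.01 and 0.03 in the controls (replicates 1 to 3). With GSK4112 it was -0.03, -0.04 and -0.02. Here the groups did not overlap. With means over members in place of medians, controls had -0.007 to 0.058 and GSK4112 libraries -0.048 to -0.016. For the medians, the group means were 0.025 ± 0.02 and -0.026 ± 0.011 (SD, n = 3 each). Their opposite signs reflect the centring of each gene on its mean over all libraries, so only the difference between the groups can be read.

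This tilt was small, 0.05 on the log2 scale between the group means, and unlike the shift itself it did not sit in replicate 3. It was separated as well when only the members with over 90% of their fragments on the gene itself were used, with 0.008 to 0.027 in controls and -0.031 to -0.02 with GSK4112. It was barely separated when each member was summed with its copies, with a lowest control of -0.003 and a highest GSK4112 library of -0.007. Among members with a coding sequence up to the median of 453 bases (19 large, 18 small) the groups overlapped, with controls from -0.055 to 0.043 and GSK4112 from -0.031 to -0.003. Among the longer ones (21 large, 13 small) controls had 0.018 to 0.043 and GSK4112 -0.039 to 0.0001. As summed FPKM, the large subunit was 1.7, 1.69 and 1.7 times the small in the controls and 1.67, 1.6 and 1.62 times with GSK4112. Without Rps2 and Rpl26 these ratios were 1.74, 1.7 and 1.72 against 1.71, 1.66 and 1.67, and the groups overlapped.

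The shift was narrow across members. The middle 50% of members lay between 0.08 and 0.21 in log2 difference, an interquartile range of 0.12, while that of all genes tested was 0.28. The median standard error of a single member was 0.11. It includes spread between libraries that the members share, so it does not measure the spread between members. The counting error alone was 0.016 at the median. Within a library the members' deviations had an interquartile range of 0.073 to 0.112, against 0.217 to 0.328 for all genes tested. The median of each library held 34.6% of the members' squared deviations. Without Rps2 and Rpl26 it held 71.4%, and with every member summed with its copies 76.8%, against 0.389% over all genes tested. Scaling to library size tends to keep the median of all genes near 0, here from -0.047 to 0.035. Their share is therefore low whatever their evenness.

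**Figure D3:**
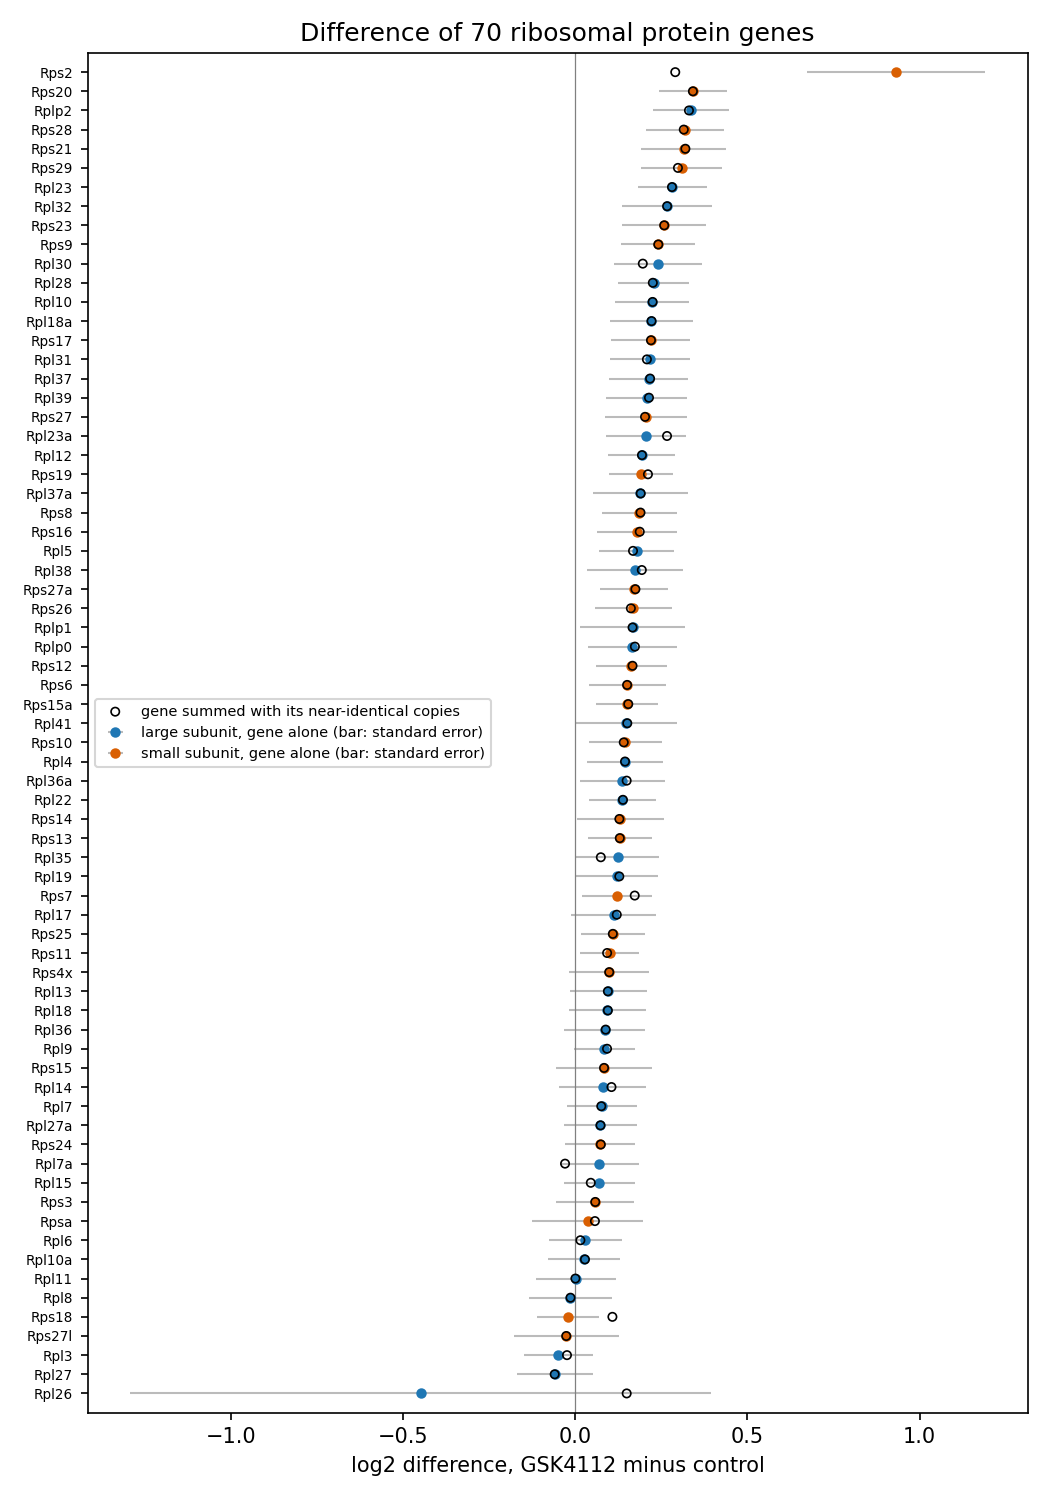
Log2 difference, GSK4112 minus control, of 70 of the 71 members in order (filled points, with the standard error of limma as bars) and of each member summed with its near-identical copies (open circles). Rps2 at 0.93 and Rpl26 at -0.45 stand away from the rest, and both move into the range of the others when summed with their copies.

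Of the 71 members, 6 were above 0.3, 59 were between 0 and 0.3, and 6 were below 0. Rps20, a small-subunit protein of the head, had 82.9, 81.0 and 71.2 FPKM in controls and 99.6, 92.3 and 106.9 FPKM with GSK4112. All GSK4112 libraries were above all controls. Its log2 difference was 0.34 ± 0.10 (standard error), with an adjusted p of 0.157 in limma.

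Rplp2, a protein of the acidic stalk that recruits elongation factors, had 123.2, 114.1 and 109.5 FPKM in controls and 135.6, 137.4 and 167.0 FPKM with GSK4112. The groups were separated there too, with a log2 difference of 0.34 ± 0.11 and an adjusted p of 0.204 in limma. Rps28, near the mRNA exit of the small subunit, had 99.3, 100.7 and 85.6 FPKM in controls and 108.2, 116.2 and 133.1 FPKM with GSK4112. Its groups were also separated, with a log2 difference of 0.32 ± 0.11 and an adjusted p of 0.229. Without both replicate 3 libraries the differences were 0.22 for Rps20, 0.20 for Rplp2 and 0.16 for Rps28.

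At the other end, apart from Rpl26, stood Rpl27, Rpl3 and Rps27l. Rpl27 had 209.9, 206.5 and 182.9 FPKM in controls and 191.9, 172.7 and 211.4 FPKM with GSK4112, a log2 difference of -0.06 ± 0.11. Rpl3, which lies close to the peptidyl transferase centre, had 156.8, 160.0 and 138.2 FPKM against 140.4, 140.1 and 159.1 FPKM, a difference of -0.05 ± 0.10. In both, GSK4112 replicate 3 was level with the higher controls and the other GSK4112 libraries were lower than them.

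Rps27l is a paralog of Rps27 that p53 induces. It had 114.2, 92.0 and 80.4 FPKM in controls and 101.2, 81.0 and 97.7 FPKM with GSK4112, with replicate 1 highest in both groups. Its log2 difference was -0.03 ± 0.15, and that of Rps27 was 0.21 ± 0.12 with an adjusted p of 0.436 in limma.

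The most abundant members of the large subunit were Rplp1, Rplp0 and Rpl8, and those of the small subunit Rps15, Rps6 and Rps4x. Rplp1 had 1145, 996 and 874 FPKM in controls and 1190, 994 and 1190 FPKM with GSK4112, a log2 difference of 0.17 ± 0.15. Rpl8, whose coding sequence has no near-identical copy, had 807, 737 and 676 FPKM in controls and 726, 685 and 785 FPKM with GSK4112, a difference of -0.01 ± 0.12. In both genes the groups overlapped.

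Rps15 had a log2 difference of 0.08 ± 0.14, Rps4x of 0.10 ± 0.12, and Rps6, the target of S6 kinase, of 0.15 ± 0.11. FPKM here divided by the union of all exons of a gene, which was 2.28 times the length of its main mRNA at the median and up to 6.14 times. Per kilobase of the main mRNA, at the same library scaling, the order of levels was another: Rps14 came first with 1282, ahead of Rpl8 with 1175, Rplp0 with 1110 and Rplp1 with 1065 fragments per kilobase.

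By place in the ribosome, 0 members of any group passed the test. All 4 stalk proteins were above 0, with Rplp0 at 0.17, Rplp1 at 0.17, Rpl12 at 0.19 and Rplp2 at 0.34. Of the 4, 2 were separated, against 15.7% of all genes tested with GSK4112 higher. In the groups that follow, 0 of the 2 with 5S rRNA and 2 of the 8 at the exit tunnel were separated. So were 1 of 2 at the mRNA entry, 1 of 4 at the exit and platform and 1 of 4 on the X chromosome. Of the pair that carries 5S rRNA and binds MDM2, Rpl5 was at 0.18 and Rpl11 at 0.00. Around the peptide exit tunnel, 7 of 8 members were above 0, from 0.11 (Rpl17) to 0.22 (Rpl31), with Rpl4 at 0.14, Rpl39 at 0.21, Rpl19 at 0.12, Rpl23a at 0.21 and Rpl35 at 0.12, and Rpl26 was the exception.

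At the mRNA entry of the small subunit, Rps3 was at 0.06 and Rps2 at 0.93. At the exit and platform, Rpsa was at 0.04, Rps14 at 0.13, Rps26 at 0.17 and Rps28 at 0.32. The 4 members on the X chromosome were Rpl10 at 0.22, Rpl39 at 0.21, Rpl36a at 0.14 and Rps4x at 0.10. Rps19, the gene most often mutated in Diamond-Blackfan anaemia, was at 0.19, Rps27a, made as a fusion with ubiquitin, at 0.17, Rpl38, needed for normal patterning of the axial skeleton, at 0.17, Rpl41, the shortest member, at 0.15 and Rpl22 at 0.14. These values are log2 differences with standard errors of 0.09 to 0.16, apart from Rps2 with 0.26 and Rpl26 with 0.84.

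Without both replicate 1 libraries, the fit with 2 libraries a group, 68 of the 71 members were above 0, and the median move of a member was 0.06 upward. The difference moved by more than 0.1 for 9 members. Among those named above, Rpl35 went from 0.12 to 0.29, Rpl41 from 0.15 to 0.26, Rpl11 from 0.00 to 0.11 and Rps15 from 0.08 to 0.19, while Rpl23a went from 0.21 to 0.10. Rps2 and Rpl26 also moved by more than 0.1. The sign changed for 3 members, Rpl3 at 0.01, Rpl8 at 0.06 and Rps27l at 0.05 without these libraries. Rplp2 was at 0.44, Rps28 at 0.42, Rps20 at 0.38 and Rpsa at 0.13. The median was 0.19 for the large subunit and 0.20 for the small.

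Rps2 was the member farthest above the rest and Rpl26 the member farthest below, and both have an abundant copy. Of the 71 members, 67 had at least 1 other gene that matched their coding sequence at 95% identity or more over at least 80% of its length, 475 copies in all, of which 330 were in the table. At the median a member held 96.0% of the fragments of itself and its copies, counted over all exons of each and called shared below. The 4 members Rpl23a, Rpl26, Rps18 and Rps2 held 50% or less. Some copies are other protein-coding genes, whose fragments outside the match count too. Ciapin1, a copy of Rpl7a, had 14.4 to 14.7 FPKM in controls and 9.47 to 10.7 FPKM with GSK4112. The log2 difference of Rpl7a was 0.07 alone and -0.03 with copies. Coding sequence is shown here because a read can be placed only where the copies differ. Each stretch is coding strand, 5′ to 3′, from GENCODE M21 transcripts on GRCm38, with the bases that differ in capitals and positions counted from 1 at the A of the start codon.

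Rps2: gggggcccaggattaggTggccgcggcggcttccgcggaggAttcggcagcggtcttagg
Rps2-ps13: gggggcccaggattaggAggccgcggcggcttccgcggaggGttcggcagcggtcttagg
Rps2-ps6: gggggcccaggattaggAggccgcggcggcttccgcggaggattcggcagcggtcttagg
Rpl26: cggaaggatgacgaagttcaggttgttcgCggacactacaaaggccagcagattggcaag
Gm15772: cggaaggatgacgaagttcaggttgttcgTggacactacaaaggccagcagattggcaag

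The Rps2 stretch covers coding positions 43 to 102 and holds T60A and A84G for Rps2-ps13 and T60A for Rps2-ps6. Over the whole coding sequence of 879 bases, Rps2-ps13, a processed pseudogene at chrX:52898588-52899469, had 7 mismatches to Rps2. Rpl26 and Gm15772, a processed pseudogene at chr5:3236431-3236868, differed at 2 of 435 bases, C177T and T288C. The parent Rps2 lies at chr17:24718116-24721929 and Rpl26 at chr11:68901583-68906989.

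Rps2, at the mRNA entry of the small subunit, had 142.4, 97.1 and 82.8 FPKM in controls and 148.3, 219.3 and 247.7 FPKM with GSK4112. The groups did not overlap, but control replicate 1 and GSK4112 replicate 1 were close. The log2 difference was 0.93 ± 0.26 with an adjusted p of 0.148 in limma, and 1.37 with an adjusted p of 0.0045 without both replicate 1 libraries. A copy on chromosome 18, Rps2-ps10, moved the other way. In FPM, fragments in a library scaled to 1000000, it had 79.4, 91.4 and 88.0 in controls, 96.0 in GSK4112 replicate 1, and 5.98 and 7.48 in GSK4112 replicates 2 and 3.

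Rps2-ps13 had 399, 351 and 330 FPM in controls and 407, 318 and 362 with GSK4112. Rps2 itself held 34.3, 28.0 and 26.0% of the fragments of the gene and its copies in controls, and 34.2, 53.0 and 52.9% with GSK4112. The sum of Rps2 and its copies had a log2 difference of 0.29, with the gene alone at 0.94 in FPM.

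Rpl26, at the mouth of the exit tunnel, had 11.2, 74.2 and 64.1 FPKM in controls and 10.1, 42.1 and 47.9 FPKM with GSK4112. Both replicate 1 libraries were far below the other 4. Its log2 difference was -0.45 ± 0.84 with an adjusted p of 0.823 in limma, and -0.61 with an adjusted p of 0.0353 without both replicate 1 libraries. Without control replicate 1 alone it was -1.29, and without GSK4112 replicate 1 alone it was 0.23.

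Gm15772 took most of the fragments of this pair. It had 368, 264 and 227 FPM in controls and 365, 315 and 367 with GSK4112, with Rpl26 at 16.1, 107.2 and 92.5 and at 14.6, 60.8 and 69.2. Rpl26 thus held 4.2, 28.8 and 28.9% of the shared fragments in controls and 3.8, 16.1 and 15.8% with GSK4112. Summed with its copies, Rpl26 had a log2 difference of 0.15, close to the members' median.

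**Figure D4:**
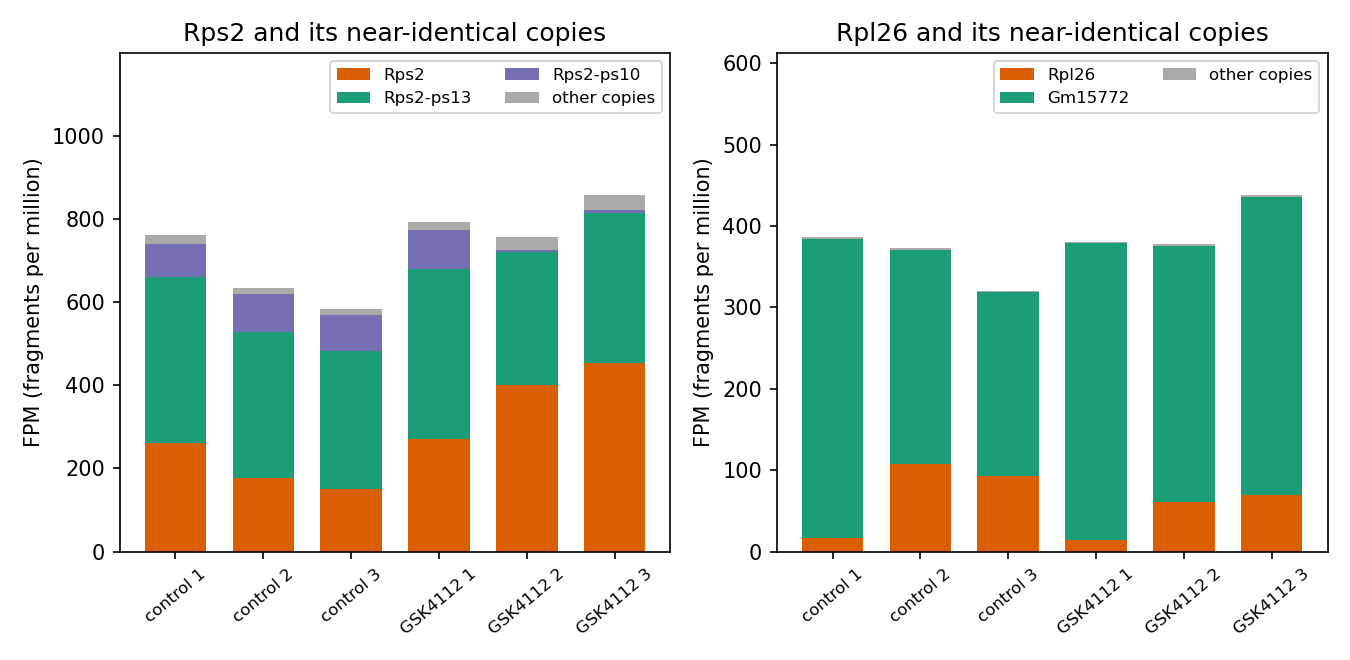
Fragments in a library scaled to 1000000 (FPM) on Rps2 (left) and Rpl26 (right) and on their near-identical copies in each of the 6 libraries (horizontal axis), stacked, with less abundant copies summed. Relative to its size, the whole stack varies less than the parent's part. That part is largest for Rps2 in GSK4112 replicates 2 and 3 and smallest for Rpl26 in both replicate 1 libraries.

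Rpsa, the laminin receptor protein at the mRNA exit, had a copy that differed by replicate number. This copy, Rpsa-ps10, at chr3:150072658-150073542 with 6 mismatches in 885 coding bases, had 348 and 354 FPM in the 2 replicate 1 libraries and 143 to 187 in the other 4. Rpsa itself had 581, 709 and 601 in controls and 525, 658 and 773 with GSK4112. Its log2 difference was 0.04 ± 0.16 alone and 0.06 with copies.

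With every member summed with its copies, 66 of 71 were above 0, the differences ran from -0.06 to 0.34, and 0 members were called by limma. The median stayed at 0.15. The 4 members whose coding sequence had no near-identical copy had a median of 0.02 (0.08 without both replicate 1 libraries), with Rpl8 at -0.01, Rps27l at -0.03 and Rps3 at 0.06 among them. The 46 members with over 90% of the shared fragments on the gene itself had a median of 0.15, and so did the other 25.

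Several named genes below the threshold of 10 FPKM had copies that held most of the fragments. Just inside the threshold were Rps18 at 14.1 and Rpl35 at 20.1 FPKM, and just outside were Rpl29 at 9.28 and Rpl13a at 6.63 FPKM. The other named genes below it were Rpl35a at 5.33, Rpl34 at 5.1, Rpl21 at 2.29, Rpl24 at 0.216 and the paralogs Rpl3l at 0.0297 and Rpl39l at 0.0121 FPKM. Of the fragments of the gene and its copies together, Rpl34 held 5.61%, Rpl21 2.39%, Rpl29 8.55% and Rpl24 12%. Rps18 held 29.5% and had a log2 difference of -0.02 alone and 0.11 with copies.

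Members with a short coding sequence tended to have the larger differences. The median was 0.17 for the 37 members with up to 453 coding bases and 0.11 for the 34 longer ones. Separated were 13 (35.1%) and 6 (17.6%) of them, against 15.7% of all genes tested with GSK4112 higher. Spearman's rho between coding length and log2 difference was -0.39 over the 71 members, alone or summed with copies, given as a description since the members share their libraries. With GC content of the coding sequence it was 0.06 and with mean FPKM 0.02. With exon length it was -0.18 over the members, -0.20 when summed with copies, and 0.03 over all genes tested. Without both replicate 1 libraries the medians were 0.26 for the shorter and 0.15 for the longer members.

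Ribosomal proteins that the names do not cover were close to the members. Fau, made as a ubiquitin-like fusion, was at 0.10, Rps3a1 at 0.14, and Rack1, a scaffold on the small subunit, at 0.08, and 0 of these 3 passed. Rpl36al was at 0.499 FPKM and was not tested. Of the paralogs, Rpl22l1 was at 0.13 and Rpl7l1 at -0.07.

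The mRNAs of other parts of protein synthesis did not all stand on the members' side. Of 6 cytosolic elongation factors 3 were above 0. Eef1a1, which brings aminoacyl-tRNA to the ribosome, had 2870, 2841 and 2588 FPKM in controls and 3168, 3120 and 3490 FPKM with GSK4112, and Eef2, the translocase, had 1013, 1099 and 983 against 1175, 1235 and 1401 FPKM. Both were separated, at 0.24 ± 0.15 and 0.30 ± 0.13, with adjusted p of 0.473 and 0.306 in limma. Of 13 other mRNAs with a TOP tract, 7 were above 0, with a median of 0.07. The 13 ran from -0.38 to 0.40, and 0 were called with or without the block. At the ends, Tpt1 was at 0.40 and Hnrnpa1, an RNA-binding protein, at -0.38, with adjusted p of 0.289 and 0.12 in limma.

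Of 21 initiation factors 6 were above 0, with a median of -0.07 and a range from -0.42 to 0.09. With or without the block 0 of them were called. Eif4a1, the helicase of cap-dependent initiation, was at -0.16 and Eif3l, a subunit of eIF3, at -0.42, with adjusted p of 0.503 and 0.0886 in limma. The mitochondrial ribosomal proteins had medians of 0.02 over 29 small-subunit genes (Mrps21 at 0.10, Mrps12 at -0.01) and -0.01 over 48 large-subunit genes (Mrpl34 at 0.00, Mrpl28 at -0.04). None of these 77 mitochondrial ribosomal genes was called by limma, with or without the block, and 3 had an unadjusted p under 0.05.

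Ribosome assembly factors stood on the other side of 0 from the ribosomal proteins. Of 34 tested, 33 were below 0, with a median of -0.16, 7 were separated with GSK4112 lower (7.9% of all genes), and 0 passed limma without the block, with 5 at an unadjusted p under 0.05. With libraries matched by number, which no label states as a pairing, the medians were -0.22, -0.09 and -0.22. In that matching this lean, unlike that of the members, was in all 3 pairs. The most abundant, Nhp2 of the H/ACA snoRNPs and nucleolin (Ncl), were at -0.19 and -0.25. With the replicate block 2 of the 34 were called, against 6.89% of all genes tested. They were Nop56 and Nop58, core proteins of box C/D snoRNPs that were named after their values were seen. Nop56 had 37.5, 22.4 and 27.5 FPKM in controls and 24.7, 16.6 and 16.2 FPKM with GSK4112, a log2 difference of -0.58 ± 0.23 with an adjusted p of 0.274 in limma, and 0.023 with the block. The mitosis genes were also higher in replicate 1, where Nop56 was highest in each group, and their part in it was not tested.

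Among 14 genes of RNA polymerase I and its factors 7 were above 0, with Rrn3 and Ubtf, both needed for initiation on ribosomal DNA, at 0.00 and 0.27. In that list 2 genes were separated with GSK4112 higher and 2 with GSK4112 lower, against 15.7% and 7.9% of all genes tested. Without the block 0 were called. Polr1a, the largest subunit of the polymerase, had 16.9, 16.2 and 18.7 FPKM in controls and 13.0, 12.5 and 12.3 FPKM with GSK4112. Its log2 difference was -0.42 ± 0.08, with an adjusted p of 0.0747 in limma, 0.0439 with the block and 0.0546 without both replicate 1 libraries.

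Among 17 regulators of the mTOR, LARP and MYC group 14 were above 0, against 60.9% of all genes tested. Separated were 6 with GSK4112 higher and 1 lower, against 15.7% and 7.9% of all genes, and 0 were called without the block. With the block 1 was called in each direction, against 6.89% of all genes called in either direction. Mxd4, a MAX partner that opposes MYC, had 8.25, 8.09 and 9.50 FPKM in controls and 10.5, 12.3 and 12.7 FPKM with GSK4112. Its log2 difference was 0.41 ± 0.10, with an adjusted p of 0.125 in limma, 0.0474 with the block and 0.0587 without both replicate 1 libraries. Polr1a and Mxd4 were named after their values were seen. Eif4ebp1, a repressor of translation that mTOR inactivates, was at -0.11. Myc, a transcription factor that drives ribosome production in many cells, had 79.8, 79.1 and 73.0 FPKM in controls and 62.5, 42.5 and 44.6 FPKM with GSK4112. All GSK4112 libraries were below all controls, with a log2 difference of -0.64 ± 0.15 and an adjusted p of 0.11 in limma. It passed with the replicate block (0.0347) and without both replicate 1 libraries (0.00916).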

How the data were processed

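Bulk RNA sequencing of 3 control and 3 GSK4112 libraries was analysed from a table of FPKM that the authors deposited, with 1 column per library. GRCm38 is the build per the submitters' processing notes; for aligner, counter, annotation release and strand setting the entry is not given in the sources used here, and so overlapping and near-identical genes are uncertain. Symbols came from GENCODE M21, where 27098 of 27151 IDs were found. FPKM times exon length gave library totals with which 90.3 to 90.6% of values were whole within 0.01. Genes with a mean of at least 1 FPKM entered limma (version 3.58.1, under R 4.3.3). The values were log2(FPKM + 1), a scale that understates changes of low genes. The fit had a variance trend, 2-sided, no block, and Benjamini-Hochberg adjustment over 12181 genes. Copies were found with blastn 2.17.0. Members, gene lists and named genes were chosen with earlier results of these data known. Named were the 3 most abundant members of each subunit, the 4 largest and 4 smallest differences, called members, those next to the threshold, structural groups, 11 genes fixed by name, and from other lists the called and the 2 most abundant genes. An exact permutation of 3 against 3 libraries cannot give a p below 0.1. The fit was tested on simulated data. A few genes of the lists are not reported here.

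Replicate numbers occur in both groups. Libraries that share a number deviated from their group means together, with correlations of 0.665, 0.326 and 0.213 over genes, each above the limit of 0.1. The replicate block and the comparisons by number used this matching, while the main fit did not. No label states such a pairing. Control replicate 3 with GSK4112 replicate 2 reached 0.53, and control replicate 2 with GSK4112 replicate 3 reached 0.357. Both exceed the matches by number, so these correlations do not settle how replicates 2 and 3 pair.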

Additional observations from a re-analysis of the deposited data

How the results depend on the processing

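No member was called under any scaling, filter or pseudocount tried, with limma without the trend, or without any single library. With the replicate block 0 members and 839 genes were called. Leaving out both replicate 1 libraries called 2 members, against 856 genes (7.03%). The same fit with the replicate block again called 2 members, against 1139 genes (9.35%). Of calls over all genes, limma made 8 without control replicate 2 and 0 without control replicate 3, without replicate 2 of GSK4112, or without its replicate 3, in place of 126, while 1717, 1843, 1224 and 1318 genes had an unadjusted p under 0.05. The members' median ranged from 0.07 to 0.19 over single libraries left out and fell to 0.0272 without both replicate 3 libraries, an alternative chosen after the data were seen, where the large subunit had -0.00892, the small 0.0357, their difference was -0.0446 and the ratio of summed FPKM 1.006. The 4 members without a near-identical copy had a median of 0.0221. With single libraries left out, large minus small ranged from -0.0495 to -0.0161 and the interquartile range from 0.101 to 0.138. The separated count then ranged from 19 to 33, against 19.1 to 25.8% of all genes, in place of 15.7% with all libraries. Without both replicate 1 libraries the interquartile range was 0.152 and 31 members were separated, against 35% of all genes. The separated count was 33 with TPM (15.6% of all genes), 7 with median of ratios (10.6%), 41 with quantile normalization (12.7%) and 33 with scaling on the other genes (16.6%). Summing members with copies, also chosen after the data were seen, kept the median. Of 38 named genes, 20 kept their sign in all 19 alternatives; Rpl26 changed it in 3. Depth was no limit for members, whose largest counting error was 0.057 in log2 difference.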
